A study of Arabidopsis thaliana with 12 samples.

Results

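The xyloglucan endotransglucosylase/hydrolase (XTH) genes of Arabidopsis thaliana are described here across 3 genotypes. The family comprised the 33 loci named XTH1 to XTH33, found on the array by their AGI locus identifiers among 25665 loci, and each was read by 1 probe. Of the 33 members, 30 passed the filter on dim probes and were tested, and XTH1, XTH2 and XTH3 were not. The members were taken by gene name, but the family was chosen with earlier results of these data known.

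Xyloglucan is a hemicellulose that coats and tethers cellulose microfibrils in the primary wall. XTH enzymes cut a xyloglucan chain and either join the new end to another chain (endotransglucosylase activity) or to water (hydrolase activity), and so remodel the wall while cells grow or differentiate. Individual members are known for expression in different organs, such as the elongation zone and hairs of the root, the stem, the leaf and the vascular tissue.

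The 12 samples were whole seedlings aged 2 weeks, all of the Columbia-0 background, with 4 arrays per genotype. The glk1 glk2 seedlings are the double mutant of GLK1 and GLK2, transcription factors that promote chloroplast development. The 35S:GLK1-SRDX seedlings carry GLK1 joined to the SRDX repression domain and driven by the 35S promoter, which is active in most tissues and not only in green cells. The sources used here do not say how many independent transgenic lines were sampled. Wild-type seedlings carried neither change. All were grown alike on MS agar holding 1% sucrose, at 23 °C, with days of 16 h light and nights of 8 h, and no other treatment was given. Each sample pooled many seedlings. Nothing in the labels states that the 4 samples of a genotype were separate cultures, so each p-value reflects only how far these samples spread, and that spread may be technical.

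A level below is log2 of the background-subtracted spot intensity minus log2 of that array's 75th percentile, so that 0 is the 75th percentile of the array. The percentiles ran from 1522 to 2480 intensity units, and 63.9% to 68.5% of probes were well above background. Differences were tested with limma over 20640 loci, with adjusted p under 0.05 as the threshold for "rose" and "fell". The arrays lay on 3 slides. Slides 1 and 2 each held 2 glk1 glk2 and 2 wild-type arrays, while slide 3 held all 4 35S:GLK1-SRDX arrays, so slide and 35S:GLK1-SRDX cannot be told apart in any comparison with that line. The labels were checked with the targeted genes. GLK2 was 183-fold lower in glk1 glk2 than in wild type (-7.51 ± 0.19 SE, limma adjusted p = 5.12e-09), and GLK1 was 4.68-fold lower (-2.23 ± 0.28 SE, adjusted p = 0.00289). In 35S:GLK1-SRDX against wild type, GLK1 was at 0.84 ± 0.28 SE (adjusted p = 0.0662) and GLK2 at 0.62 ± 0.19 SE (adjusted p = 0.0538) on the log2 fold scale.

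The members were separated by the organ in which each is best known to be expressed, from background knowledge, since roots and shoots were not harvested apart. Earlier results of these data were known when these classes and the marker lists were set. The 10 root-type members were XTH12, XTH13, XTH14, XTH17, XTH18, XTH19, XTH20, XTH21, XTH26 and XTH31. The 7 shoot-type members were XTH4, XTH9, XTH15, XTH16, XTH24, XTH27 and XTH28. The other 16 were left unassigned, and 13 of those were tested. All 20 root markers and all 8 shoot markers were measured above background on at least 1 array, and 17 root and 8 shoot markers on all 12, so both organs gave signal in the samples labelled whole seedlings.

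Of the 30 tested members, 26 were well above background on all 12 arrays. XTH10 and XTH26 were so on 3 of 4 glk1 glk2 arrays, XTH11 on 3 of 4 wild-type arrays, and XTH29 on 1 of 4 glk1 glk2 and 3 of 4 wild-type arrays. XTH1 and XTH3 were well above background on 0 of 12 arrays, with intensities of 1.96 to 7.10 and 2.08 to 3.45 units. XTH2 was so on 1 array, glk1 glk2 replicate 3.

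**Figure D1:**
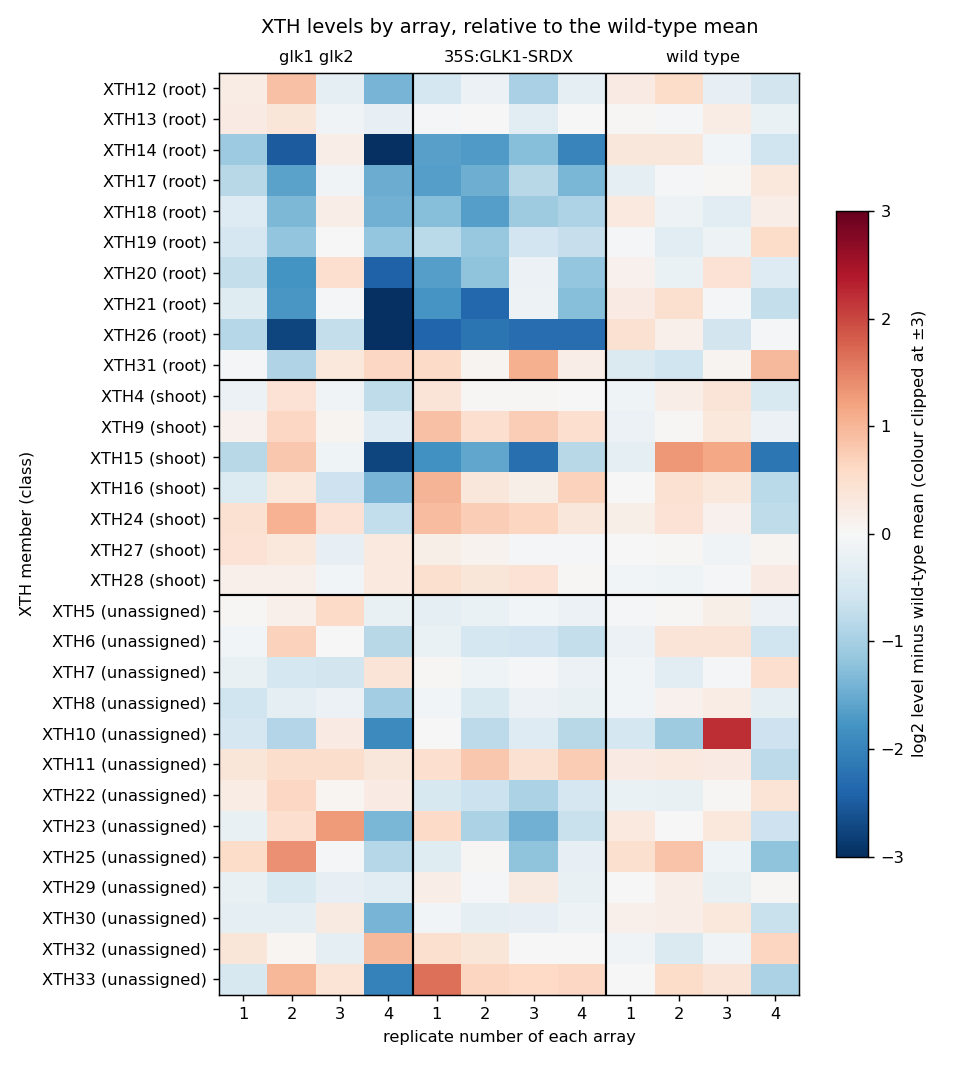
Each row is 1 of the 30 tested XTH members and each column 1 of the 12 arrays, by genotype and replicate number. Colour gives the log2 level minus that member's wild-type mean, blue for lower and red for higher, clipped at 3. Most root-type rows are blue on all 4 35S:GLK1-SRDX arrays and on glk1 glk2 replicates 2 and 4, and are paler on glk1 glk2 replicate 3.

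In 35S:GLK1-SRDX against wild type, root-type members were lower and 1 shoot-type member was higher. XTH17, XTH18 and XTH26 of the root type fell by 1.33, 1.23 and 2.28 on the log2 scale. XTH9, a shoot-type member, rose by 0.66. XTH22, the touch-induced gene TCH4, fell by 0.65. In all, 5 of 30 members were called, 1 higher and 4 lower, where 14.3% of all tested loci were called (7.89% higher and 6.40% lower). At an unadjusted p under 0.05 there were 9 members, where 30.7% of all loci were so. For 9 members 35S:GLK1-SRDX and wild type had no overlap between arrays, 3 higher and 6 lower, as for 28.0% of all loci (14.8% higher and 13.2% lower). The root-type median log2 fold change was -1.14, with 9 of 10 members below 0, and the shoot-type median was 0.33, with 6 of 7 above 0. Over all tested loci the median was 0.0080, and 48.9% were below 0. In bulk seedlings, fewer cells of a type and less RNA per cell cannot be told apart.

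XTH17 (AT1G65310), with XTH18, XTH19 and XTH20, belongs to a group of closely related genes expressed mainly in roots. Its levels were -6.07, -5.88, -5.24 and -5.80 on the 35S:GLK1-SRDX arrays, against -4.70, -4.49, -4.39 and -4.10 on the wild-type arrays. Every 35S:GLK1-SRDX array lay below every wild-type array. XTH17 was 2.51-fold lower (-1.33 ± 0.31 SE, limma adjusted p = 0.0183). In glk1 glk2 it was at -5.26, -6.02, -4.53 and -5.91, so that replicate 3 alone fell within the wild-type range. That difference from wild type was -1.01 ± 0.31 SE (adjusted p = 0.104).

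XTH18 (AT4G30280) is known for a role in primary root growth. It stood at 0.13, -0.24, 0.34 and 0.49 on the 35S:GLK1-SRDX arrays, against 1.70, 1.25, 1.09 and 1.60 on the wild-type arrays. These groups did not overlap, and the level was 2.34-fold lower (-1.23 ± 0.34 SE, limma adjusted p = 0.0361). On the glk1 glk2 arrays XTH18 stood at 1.02, 0.06, 1.61 and -0.03. Replicates 2 and 4 of the mutant were thus in the 35S:GLK1-SRDX range and replicate 3 was in the wild-type range (-0.75 ± 0.34 SE, adjusted p = 0.254).

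XTH26 (AT4G28850) encodes an enzyme of roots and root hairs. Its 35S:GLK1-SRDX levels, close to each other, were -6.75, -6.56, -6.65 and -6.67, against -3.92, -4.21, -4.91 and -4.44 in wild type. It was 4.87-fold lower with an adjusted p at the threshold (-2.28 ± 0.69 SE, limma adjusted p = 0.04997). In glk1 glk2 it was at -5.23, -7.13, -5.09 and -8.90, all below the wild-type arrays, and it was 4.64-fold lower without passing (-2.21 ± 0.69 SE, adjusted p = 0.112). The mutant arrays of XTH26 were far more spread than those of either other group.

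XTH9 (AT4G03210) is expressed in shoot apices and stems. Levels of 5.53, 5.15, 5.39 and 5.17 on the 35S:GLK1-SRDX arrays stood above 4.47, 4.69, 4.97 and 4.47 on the wild-type arrays. XTH9 was 1.58-fold higher (0.66 ± 0.20 SE, limma adjusted p = 0.0483). The glk1 glk2 levels, 4.77, 5.27, 4.72 and 4.26, overlapped both other groups (0.10 ± 0.20 SE against wild type, adjusted p = 0.813).

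XTH22 (AT5G57560), also named TCH4, is induced by touch, auxin and brassinosteroids. It was at 5.09, 4.93, 4.62 and 5.08 on the 35S:GLK1-SRDX arrays, against 5.39, 5.35, 5.61 and 5.98 on the wild-type arrays. The groups did not overlap, and XTH22 was 1.57-fold lower (-0.65 ± 0.17 SE, limma adjusted p = 0.0284). Its glk1 glk2 levels were 5.81, 6.20, 5.64 and 5.83 (0.29 ± 0.17 SE against wild type, adjusted p = 0.371).

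**Figure D2:**
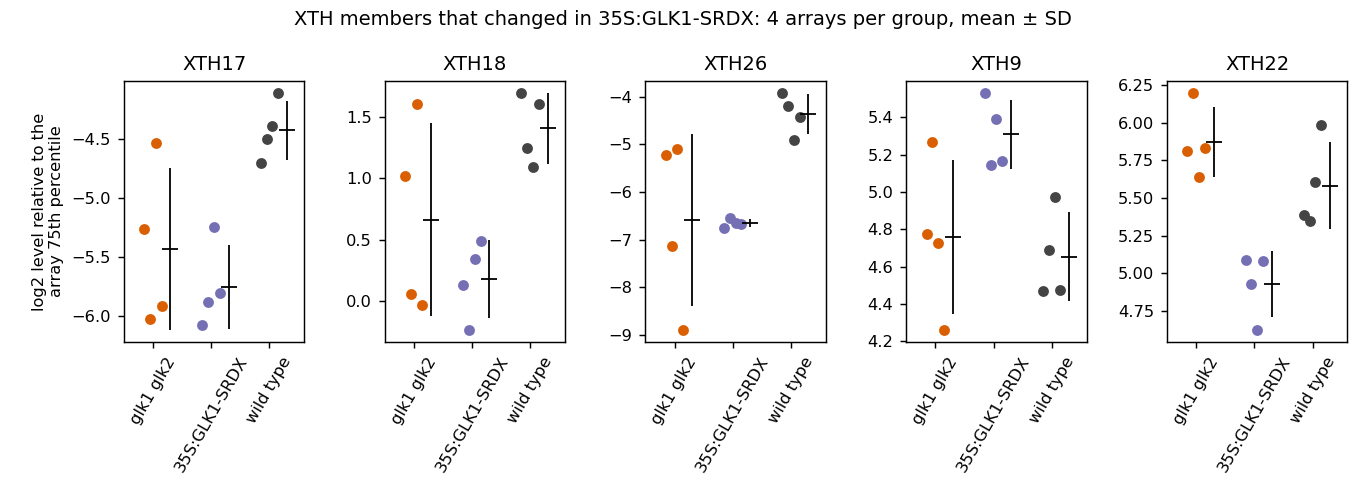
Points are the log2 levels on single arrays of the 5 members that passed between 35S:GLK1-SRDX and wild type, and the bar beside each group is its mean ± SD over 4 arrays. In each panel the 35S:GLK1-SRDX points are clear of the wild-type points, and for XTH17, XTH18 and XTH26 the glk1 glk2 points are spread more widely than either other group.

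The count of 5 depended on single arrays. It was 2 without any 1 of the 4 wild-type arrays, and 1, 0, 1 and 3 without 35S:GLK1-SRDX replicate 1, 2, 3 and 4. Calls over all loci dropped too, to between 1502 and 2380 in these fits in place of 2948. With each array scaled to its median in place of the 75th percentile, all loci moved up by 0.20 in this comparison and 6 members were called, 3 higher (XTH9, XTH11 and XTH28) and 3 lower (XTH17, XTH18 and XTH26). The split of all called loci then was 3763 higher and 949 lower, against 1628 higher and 1320 lower with the 75th percentile.

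The remaining root-type members of 35S:GLK1-SRDX did not pass. XTH14 (AT4G25820), whose protein acts in roots and root hairs like XTH26, was at -2.11, -2.17, -1.76 and -2.45 in 35S:GLK1-SRDX, against -0.14, -0.14, -0.55 and -1.07 in wild type. These arrays did not overlap, and the fold change was -1.65 ± 0.69 SE (limma adjusted p = 0.132). The SE of that fit is shared with the widely spread glk1 glk2 arrays. In a fit of only the 2 groups compared XTH14 passed, where 4418 of 20640 loci were called in place of 2948. XTH19 (AT4G30290), of the root elongation zone, was at -4.74, -5.07, -4.52 and -4.64 in 35S:GLK1-SRDX, against -3.99, -4.29, -4.09 and -3.39 in wild type. Here too the groups were apart (-0.80 ± 0.28 SE, adjusted p = 0.0779), and XTH19 also passed in the fit of only the 2 groups compared.

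XTH20 (AT5G48070) was at -4.05, -3.60, -2.56 and -3.55 in 35S:GLK1-SRDX, against -2.25, -2.58, -1.95 and -2.76 in wild type. Replicate 3 of 35S:GLK1-SRDX reached the wild-type range, and the difference of -1.05 ± 0.55 SE did not pass (limma adjusted p = 0.221). XTH21 (AT2G18800), known for a role in root growth, was at -3.34, -3.93, -1.72 and -2.86 in 35S:GLK1-SRDX, against -1.32, -1.09, -1.60 and -2.28 in wild type. The same replicate 3 overlapped wild type for this gene (-1.39 ± 0.69 SE, adjusted p = 0.198).

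XTH12 and XTH13, near neighbours on chromosome 5, and XTH31 had differences close to their SE. XTH12 (AT5G57530) was at -5.08, -4.73, -5.54 and -4.84 in 35S:GLK1-SRDX, against -4.32, -4.02, -4.80 and -5.10 in wild type (-0.49 ± 0.43 SE, limma adjusted p = 0.476). XTH13 (AT5G57540) was at -5.49, -5.45, -5.79 and -5.46 in 35S:GLK1-SRDX, against -5.41, -5.50, -5.21 and -5.64 in wild type (-0.11 ± 0.15 SE, adjusted p = 0.673). XTH31 (AT3G44990), an enzyme with hydrolase activity, was the root-type member above 0, at 0.52, 0.02, 1.03 and 0.15 in 35S:GLK1-SRDX, against -0.49, -0.65, 0.02 and 0.93 in wild type (0.48 ± 0.40 SE, adjusted p = 0.454). The 95% interval of that difference ran from -0.41 to 1.37. The groups overlapped for all of these 3 genes. Over the root type, 5 of 10 members lay lower with no overlap between 35S:GLK1-SRDX and wild type, where 13.2% of all loci did.

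Among the shoot-type members other than XTH9, XTH24 and XTH16 had the larger positive values. XTH24 (AT4G30270), first found as a meristem gene named MERI5, was at 5.37, 5.18, 5.08 and 4.79 in 35S:GLK1-SRDX, against 4.63, 4.88, 4.58 and 3.69 in wild type (0.66 ± 0.35 SE, limma adjusted p = 0.229). XTH16 (AT3G23730) was at 2.73, 2.06, 1.89 and 2.42 in 35S:GLK1-SRDX, against 1.74, 2.17, 2.04 and 0.91 in wild type (0.56 ± 0.37 SE, adjusted p = 0.336). In both cases the arrays of the groups overlapped. XTH28 (AT1G14720), needed for stamen filament growth, was at 2.52, 2.41, 2.46 and 2.07 in 35S:GLK1-SRDX, against 1.96, 1.92, 2.00 and 2.28 in wild type (0.33 ± 0.12 SE, adjusted p = 0.100). XTH4 (AT2G06850) and XTH27 (AT2G01850, also named EXGT-A3, which acts in leaf tracheary elements) were closest to 0, at 0.12 ± 0.24 SE (adjusted p = 0.771) and 0.05 ± 0.13 SE (adjusted p = 0.853). XTH27 was at 5.03, 4.97, 4.79 and 4.81 in 35S:GLK1-SRDX, against 4.84, 4.89, 4.75 and 4.93 in wild type.

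XTH15 (AT4G14130), also called XTR7 and induced in shoots by shade, was the shoot-type member below 0. It was at 0.85, 1.12, 0.40 and 1.84 in 35S:GLK1-SRDX, against 2.39, 3.96, 3.84 and 0.51 in wild type. Wild-type replicate 4 lay far below the other wild-type arrays, and the difference of -1.62 ± 0.85 SE did not pass (limma adjusted p = 0.225, 95% interval -3.50 to 0.26).

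**Figure D3:**
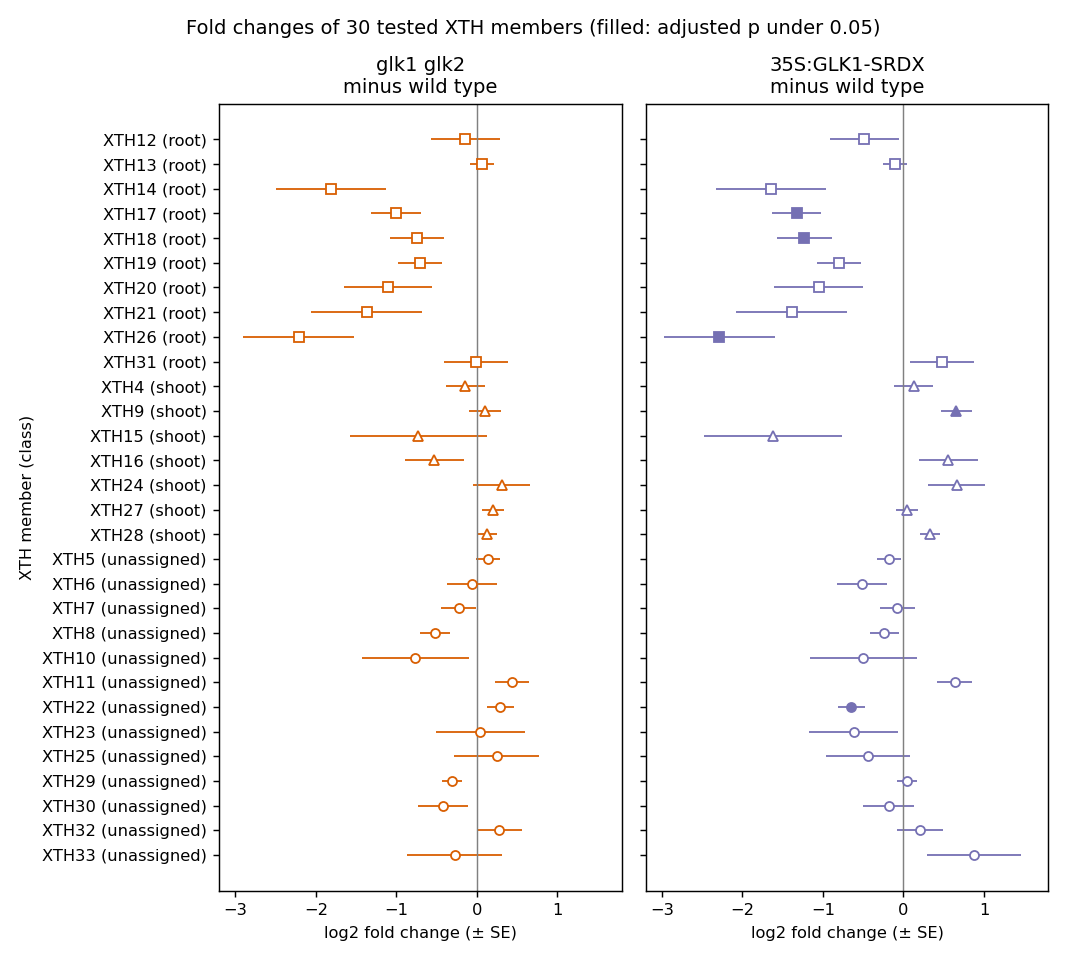
Points are log2 fold changes of the 30 tested members against wild type with bars of ± 1 SE, for glk1 glk2 on the left and 35S:GLK1-SRDX on the right. Squares are root-type, triangles shoot-type and circles unassigned members, and filled symbols passed the threshold. Root-type points lie mostly left of 0 in both panels with longer bars than most others, and the 5 filled symbols are all in the right panel.

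Of the 13 tested unassigned members, XTH22 fell and 12 did not pass between 35S:GLK1-SRDX and wild type, with a median log2 fold change of -0.18. XTH11 (AT3G48580) was at -5.84, -5.54, -5.88 and -5.60 in 35S:GLK1-SRDX, against -6.11, -6.06, -6.09 and -7.14 in wild type (0.64 ± 0.22 SE, limma adjusted p = 0.0724). XTH33 (AT1G10550), a member that is anchored at the cell surface, was at 0.84, -0.17, -0.22 and -0.20 in 35S:GLK1-SRDX, against -0.80, -0.26, -0.42 and -1.76 in wild type (0.88 ± 0.59 SE, adjusted p = 0.341). Neither overlapped between the groups. XTH25 (AT5G57550) and XTH23 (AT4G25810, also named XTR6) are relatives of XTH22, and had values of -0.44 ± 0.53 SE (adjusted p = 0.614) and -0.62 ± 0.55 SE (adjusted p = 0.484). The other 8 unassigned members, XTH5, XTH6, XTH7, XTH8, XTH10, XTH29, XTH30 and XTH32, had overlapping groups and lay between -0.51 for XTH6 and 0.20 for XTH32.

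In glk1 glk2 against wild type, root-type members again lay lower but none passed. The root-type median log2 fold change was -0.88, with 9 of 10 members below 0, and the shoot-type median was 0.10, with 4 of 7 above 0. The median over all loci was 0.0011. In limma 0 of 30 members were called, where 3.30% of all loci were (2.19% higher and 1.10% lower), and 7 had an unadjusted p under 0.05, where 19.6% of all loci did. XTH26 below and XTH11 above wild type were the 2 members whose groups did not overlap, as was so for 9.84% of all loci (6.61% higher and 3.22% lower). This comparison and the preceding one share the 4 wild-type arrays, so a likeness between them is not independent evidence.

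The glk1 glk2 arrays differed from each other more than those of the other groups. The median SD of root-type members was 0.88 in glk1 glk2, 0.34 in 35S:GLK1-SRDX and 0.40 in wild type. XTH14 was at -1.56, -2.98, -0.27 and -4.35 in glk1 glk2 (-1.81 ± 0.69 SE against wild type, adjusted p = 0.179). XTH20 was at -3.10, -4.18, -1.89 and -4.80 there (-1.11 ± 0.55 SE, adjusted p = 0.295), and XTH21 at -1.93, -3.33, -1.62 and -4.90 (-1.37 ± 0.69 SE, adjusted p = 0.300). In these 3 genes replicate 4 was the lowest mutant array, replicate 2 the next, and replicate 3 the highest. Over the class, replicate 3 was the highest of the mutant arrays for 7 of 10 root-type members and replicate 4 the lowest for 7 of 10.

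XTH19 was at -4.45, -5.13, -3.92 and -5.09 in glk1 glk2, with replicate 3 again within the wild-type range (-0.71 ± 0.28 SE, adjusted p = 0.192). XTH12, at -4.33, -3.67, -4.86 and -5.95, and XTH13, at -5.20, -5.07, -5.54 and -5.69, did not follow this order, and their highest mutant array was replicate 2. Their fold changes were -0.15 ± 0.43 SE (adjusted p = 0.888) and 0.06 ± 0.15 SE (adjusted p = 0.856). XTH31 was at -0.11, -0.96, 0.27 and 0.56 (-0.01 ± 0.40 SE, adjusted p = 0.992).

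Without glk1 glk2 replicate 3 the picture of calls in this comparison changed. Then 8 members were called, with XTH8, XTH14, XTH17, XTH18, XTH19, XTH20 and XTH26 lower and XTH27 higher, among 3222 called loci of 20640 in place of 681. Leaving out any other single array gave 0. Within slide 1, which holds replicates 1 and 2, the root-type median was -0.99, and within slide 2, which holds replicates 3 and 4, it was -0.87. The shoot-type medians were 0.26 within slide 1 and -0.23 within slide 2, and went down to -0.07 when single arrays were left out. With the authors' value table the shoot-type median was -0.08, where the median of all loci was -0.19 in place of 0.0011.

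The 7 shoot-type members of glk1 glk2 overlapped wild type when arrays were not paired by replicate number. XTH24 was at 4.91, 5.48, 4.89 and 3.72 (0.31 ± 0.35 SE against wild type, adjusted p = 0.671), XTH4 at 4.86, 5.46, 4.92 and 4.26 (-0.15 ± 0.24 SE, adjusted p = 0.782), and XTH15 at 1.84, 3.48, 2.54 and -0.08 (-0.73 ± 0.85 SE, adjusted p = 0.677). Wild-type XTH4 was at 4.90, 5.22, 5.40 and 4.56. For XTH4, XTH15 and XTH24 replicate 4 was the lowest array of both glk1 glk2 and wild type, and replicate 4 was the lowest array for 21 of 30 members in glk1 glk2 and for 17 of 30 in wild type. XTH16 was at 1.30, 2.04, 1.09 and 0.31 (-0.53 ± 0.37 SE, adjusted p = 0.456). XTH27, at 5.29, 5.16, 4.61 and 5.15, and XTH28, at 2.20, 2.20, 1.95 and 2.33, gave 0.20 ± 0.13 SE (adjusted p = 0.435) and 0.13 ± 0.12 SE (adjusted p = 0.593).

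Same-numbered glk1 glk2 and wild-type arrays deviated together, and a fit of these 8 arrays with the replicate number as a block called 1 member. XTH8 (AT1G11545), an unassigned member, was at 0.83, 1.15, 1.24 and 0.39 in glk1 glk2, against 1.35, 1.55, 1.64 and 1.16 in wild type. The mutant array was the lower of each pair. XTH8 fell in that blocked fit (-0.52 ± 0.085 SE, limma adjusted p = 0.0419), whereas the fit of 12 arrays without the block gave an adjusted p of 0.149. The block raised the number of called loci to 1420 of 20640. The other 29 members did not pass with the block. At an unadjusted p under 0.05 there were 12 of 30 members, where 6511 of 20640 loci were so. Of the shoot type, XTH15 (-0.73 ± 0.16 SE with the block, adjusted p = 0.0643) and XTH16 (-0.53 ± 0.14 SE, adjusted p = 0.0932) were lower in the mutant in 4 of 4 pairs, and XTH24 (0.31 ± 0.11 SE, adjusted p = 0.138) was higher in 4 of 4 pairs.

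The other unassigned members of glk1 glk2 gave values from -0.76 ± 0.67 SE for XTH10 (adjusted p = 0.558) to 0.44 ± 0.22 SE for XTH11 (adjusted p = 0.292). XTH11 was at -6.00, -5.83, -5.81 and -6.01 in the mutant, close to each other and all above the wild-type arrays. XTH33 was at -1.29, 0.19, -0.40 and -2.85 (-0.28 ± 0.59 SE, adjusted p = 0.836), XTH23 at -0.69, 0.01, 0.79 and -1.85 (0.04 ± 0.55 SE, adjusted p = 0.977), and XTH25 at 1.37, 2.19, 0.76 and -0.02 (0.25 ± 0.53 SE, adjusted p = 0.837). Replicate 4 was the lowest mutant array of all 3 of these.

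The direct comparison of 35S:GLK1-SRDX with glk1 glk2 asks where the repressor line and the double mutant differ. XTH22 differed and 29 of 30 tested members did not pass, where 9.27% of all loci were called (5.55% higher and 3.72% lower). XTH22 was 1.92-fold lower in 35S:GLK1-SRDX than in glk1 glk2 (-0.94 ± 0.17 SE, limma adjusted p = 0.00694), and all 4 35S:GLK1-SRDX arrays lay below all 4 glk1 glk2 arrays. It was the single member with groups apart, as 17.3% of all loci were (9.56% higher and 7.70% lower), and 4 members had an unadjusted p under 0.05, as 24.5% of all loci did. Without glk1 glk2 replicate 2, 3 members passed (XTH9 and XTH16 higher, XTH22 lower), and without glk1 glk2 replicate 3, 2 passed (XTH22 and XTH27, both lower). XTH22 passed with any single array left out.

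The root-type members that fell against wild type in 35S:GLK1-SRDX were not shown to differ between the lines. The differences of 35S:GLK1-SRDX minus glk1 glk2 were -0.32 ± 0.31 SE for XTH17 (adjusted p = 0.591), -0.48 ± 0.34 SE for XTH18 (adjusted p = 0.430) and -0.07 ± 0.69 SE for XTH26 (adjusted p = 0.969). The 95% intervals for XTH18 and XTH26 were -1.23 to 0.26 and -1.59 to 1.45. The root-type median was -0.08 and the shoot-type median 0.27. XTH9 was at 0.55 ± 0.20 SE (adjusted p = 0.110) and XTH16 at 1.09 ± 0.37 SE (adjusted p = 0.0951), the largest positive value among shoot-type members. XTH33 was at 1.15 ± 0.59 SE (adjusted p = 0.261).

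Organ markers moved with the root-type members. Of 20 root markers, 10 fell in 35S:GLK1-SRDX against wild type (median log2 fold change -1.48), where 6.40% of all loci fell. The 1 root marker above 0 was at 1.08 and did not pass. In glk1 glk2 0 root markers fell (median -1.05), where 1.10% of all loci did. In that comparison 12 root markers had an unadjusted p under 0.05, where 19.6% of all loci did. The 4 with the largest falls in 35S:GLK1-SRDX were CASP5, of the Casparian strip, by 4.58 and above background on 2 of 4 arrays of the line, the aquaporin gene TIP2;3 by 2.85, the potassium channel gene SKOR by 2.45 and the root hair wall protein gene PRP3 by 2.04. Their limma adjusted p values were 0.00262, 0.0105, 0.00544 and 0.0348. The root-marker count was 4 without wild-type replicate 1, 2 or 3 or any single 35S:GLK1-SRDX array, and 5 without glk1 glk2 replicate 1. Over all loci 1502 to 2060 were called in the former fits and 2317 in the latter, in place of 2948. The root-marker count went up to 14 without glk1 glk2 replicate 3 and 12 without its replicate 4 (4420 and 3694 over all loci). With only the 2 groups compared it was 14, and with the replicate block 12 (4418 and 4488 over all loci). For glk1 glk2 the root-marker count was 12 without its replicate 3, where 3222 of all loci were called in place of 681. Of 8 shoot markers, AS1, a leaf development regulator, rose in 35S:GLK1-SRDX (0.60 ± 0.09 SE, adjusted p = 0.00188) and 7 did not pass, where 7.89% of all loci rose. In glk1 glk2 0 shoot markers passed.

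Array by array, the median deviation of the 20 root markers from the wild-type mean was -0.72, -1.45, 0.14 and -2.25 in glk1 glk2, -1.80, -1.75, -1.15 and -1.34 in 35S:GLK1-SRDX, and 0.09, 0.21, -0.02 and -0.32 in wild type. The same quantity over the 10 root-type XTH members was -0.45, -1.48, -0.02 and -1.47 in glk1 glk2, -1.46, -1.34, -0.70 and -1.04 in 35S:GLK1-SRDX, and 0.19, -0.06, -0.05 and -0.13 in wild type. In both lists glk1 glk2 replicate 3 was nearest to wild type, and replicate 3 was the least reduced 35S:GLK1-SRDX array. Summed over the list, root markers ran from 30.9 to 93.3 times the 75th percentile in glk1 glk2, 38.0 to 71.6 in 35S:GLK1-SRDX and 55.3 to 79.4 in wild type. The sums of the 10 root-type XTH members ran from 2.00 to 5.87 in glk1 glk2, 2.35 to 4.19 in 35S:GLK1-SRDX and 4.62 to 6.02 in wild type, and 0 root markers were below background on every array. The part of root content in the XTH values was not tested.

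The 7 shoot-type members deviated by 0.12, 0.44, -0.10 and -0.73 in glk1 glk2, 0.48, 0.34, 0.18 and 0.03 in 35S:GLK1-SRDX, and -0.08, 0.20, 0.32 and -0.46 in wild type, as medians over the class. The 8 shoot markers deviated by -0.03, 0.37, -0.11 and 0.02 in glk1 glk2, 0.29, 0.26, 0.12 and 0.20 in 35S:GLK1-SRDX, and -0.22, 0.07, 0.12 and 0.02 in wild type. The groups overlapped in both lists. Shoot-marker sums ran from 17.2 to 27.7 in glk1 glk2, 19.5 to 21.6 in 35S:GLK1-SRDX and 16.4 to 24.8 in wild type, and shoot-type XTH sums from 94.2 to 183 in glk1 glk2, 138 to 177 in 35S:GLK1-SRDX and 97.5 to 147 in wild type.

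**Figure D4:**
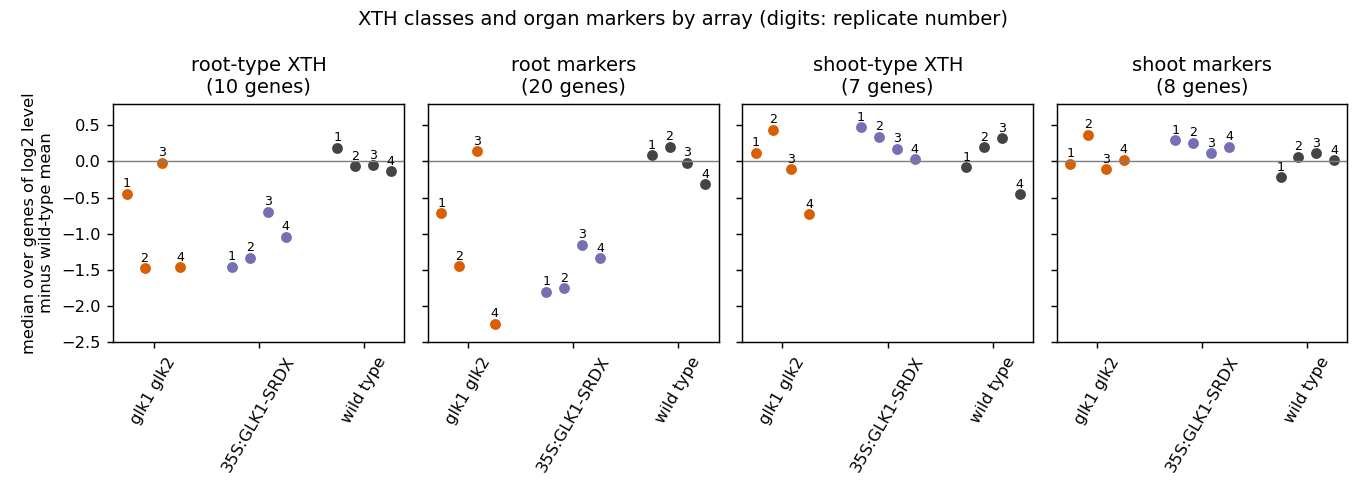
Each point is 1 array and gives the median over a gene list of the log2 level minus the wild-type mean, with the replicate number above it. Root-type XTH members and root markers show the same layout of arrays, with glk1 glk2 replicate 3 at -0.02 and 0.14 beside the wild-type arrays and all 35S:GLK1-SRDX arrays at or below -0.70, while shoot-type members and shoot markers stay between -0.73 and 0.48.

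The other genes of xyloglucan metabolism, not split by organ, had medians nearer to 0 than the root-type XTH members. Over all 30 tested XTH members the median log2 fold change against wild type was -0.21 in 35S:GLK1-SRDX and -0.19 in glk1 glk2. Of 15 genes of xyloglucan synthesis, 3 fell in 35S:GLK1-SRDX against wild type (median -0.20), where 6.40% of all loci fell. Though small, most differences were negative, with 13 of 15 below 0, where 48.9% of all loci were. For 6 of 15 the line lay lower with no overlap, where 13.2% of all loci did. XUT1, a glycosyltransferase gene of root hairs, fell by 2.37 (limma adjusted p = 0.0349), the O-acetyltransferase gene AXY4 by 0.60 (adjusted p = 0.00669) and the xylosyltransferase gene XXT4 by 0.54 (adjusted p = 0.0306). In glk1 glk2 0 of 15 passed (median -0.13, 2 at an unadjusted p under 0.05), where 3.30% of all loci passed and 19.6% had such a p. There 14 of 15 were below 0, where 49.8% of all loci were. Against glk1 glk2, XXT4 (-0.57, adjusted p = 0.0319) and AXY4 (-0.40, adjusted p = 0.0498) were again lower in 35S:GLK1-SRDX, where 3.72% of all loci were called lower. Of 3 genes that trim xyloglucan, XYL1, an alpha-xylosidase gene, rose in 35S:GLK1-SRDX both against wild type (0.34, adjusted p = 0.0420) and against glk1 glk2 (0.39, adjusted p = 0.0328). Over all loci 7.89% and 5.55% rose in these comparisons. The other 2 trimming genes lay below 0 in both and did not pass.

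Expansins, proteins that loosen the wall without cutting it, were tested for 18 of 26 alpha-expansin genes. EXPA15 rose in 35S:GLK1-SRDX against wild type (1.24 ± 0.28 SE, limma adjusted p = 0.0173), 17 did not pass, and the median was -0.14. Over all loci 7.89% rose and 6.40% fell. For 7 of the 18 the groups did not overlap, 1 higher and 6 lower, where 14.8% and 13.2% of all loci were so. In glk1 glk2 0 of 18 passed (median -0.20, 3 at an unadjusted p under 0.05), where 3.30% of all loci passed and 19.6% had such a p. EXPA24 was higher in 35S:GLK1-SRDX than in glk1 glk2, by at least 1.82-fold, where 5.55% of all loci were called higher. Its limma adjusted p of 0.00571 came from the probe's own signals on all arrays. Its probe exceeded background clearly on 4 of 4 arrays of 35S:GLK1-SRDX and on 0 of 4 of glk1 glk2. For such a probe the fold is a bound, which the p-value does not test. In that bound each mutant array enters with the dimmest signal counted as detected there, or with the probe's own signal if brighter.

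Other touch genes and brassinosteroid genes are listed for XTH22. Of the 3 other touch genes, the calmodulin gene CAM2 fell in 35S:GLK1-SRDX against wild type (-0.39 ± 0.09 SE, limma adjusted p = 0.0198), while 2 did not pass. Over all loci 6.40% fell. None of the 3 passed between 35S:GLK1-SRDX and glk1 glk2 (median -0.93), where 9.27% of all loci were called. There 1 of 3 had an unadjusted p under 0.05, where 24.5% of all loci did. For 2 of 3 the 35S:GLK1-SRDX arrays lay lower with no overlap, where 7.70% of all loci did. Of 7 brassinosteroid genes, the synthesis genes DWF4 (-0.86, adjusted p = 0.0348) and CPD (-0.56, adjusted p = 0.0417) fell in 35S:GLK1-SRDX against wild type and 5 did not pass, where 6.40% of all loci were called lower. The transcription factor gene BZR1 was lower in 35S:GLK1-SRDX than in glk1 glk2 (-0.28, adjusted p = 0.0398), where 3.72% of all loci were called lower. In glk1 glk2 against wild type 0 touch and 0 brassinosteroid genes passed, where 3.30% of all loci did. In each list 1 gene had an unadjusted p under 0.05, where 19.6% of all loci did.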

How the data were processed

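Each deposited scanner file gives linear intensity values per spot, with the background subtracted per the file headers. The submitters' processing notes name Agilent Feature Extraction 9.1.3.1. The authors' deposited value table is the same intensity divided by 1 constant per genotype (1077 for glk1 glk2, 892 for 35S:GLK1-SRDX and 974 for wild type). Its values are linear and uncentred, with column medians of 0.0798 to 0.168. Where the constants come from is not stated.

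Control spots and outlier spots (6 to 86 per array, 0 of them XTH spots) were left out and repeated spots averaged. A probe was kept if well above background on at least 4 of 12 arrays and unmarked on at least 3 arrays per group, and the brightest probe stood for a locus. Spots marked saturated numbered 0. Tests were two-sided, from lmFit and eBayes of limma 3.58.1 (R 4.3.3), in 1 fit of all 12 arrays that left 9 residual degrees of freedom. The Benjamini-Hochberg adjustment ran over 20640 loci. The procedure was tested on simulated data. The number of arrays limits the precision, with a median SE of 0.14.

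XTH members were matched by AGI locus, and all 33 were named in the gene table of TAIR10.1, used here just for gene names and their order. Members, classes and the other gene lists were chosen with earlier results of these data known. Every tested member could be named. Of each other list, up to 4 passing genes with the largest change were named. Whether a probe separates close relatives such as XTH17 to XTH20 was not tested.

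All groups share replicate numbers in the labels. Deviations of same-numbered glk1 glk2 and wild-type arrays correlated at 0.32, 0.38, 0.46 and 0.76, so the numbers pair these arrays in the data. Each such pair also shared a slide, at positions 1 and 2 for replicates 1 and 3, and at positions 3 and 4 for replicates 2 and 4. What the pairs share, in culture or in slide position, was not tested. For 35S:GLK1-SRDX the correlations of same-numbered arrays ran from -0.20 to 0.26 with wild type and from -0.10 to 0.58 with glk1 glk2, highest for replicate 3. Alternatives were normexp background correction (offset 50), quantile normalization, median scaling, other filters, the mean of a locus's probes, the value table, only the groups compared, slide or replicate as a block, and each array left out. Normexp used the median spot signal, since the files used here hold no mean signal.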

Additional observations from a re-analysis of the deposited data

Results flagged for a closer look

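Over the 30 tested members and the medians of the root and shoot type, 96 groups of 4 arrays were examined with Dixon's criterion at the 95% level, and 6 held an array far from the other 3. Chance marks about 1 in 20 groups. XTH10 was at -3.70 on wild-type replicate 3, with the next wild-type array at -6.46. XTH11 was at -7.14 on wild-type replicate 4, with the next array at -6.11, and this array alone sets the width of the wild-type group beside the higher values of both lines. XTH30 was at 2.22 on wild-type replicate 4, below the next array at 3.05. In 35S:GLK1-SRDX, XTH13 was at -5.79 on replicate 3 (next -5.49), XTH33 at 0.84 on replicate 1 (next -0.17) and XTH4 at 5.41 on replicate 1 (next 5.07).

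XTH2, which was too dim to be tested, had an intensity of 37.0 units on glk1 glk2 replicate 3, where it was well above background. Its highest wild-type value was 3.43 units, not well above background. The cause was not tested.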

How the results depend on the processing

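In glk1 glk2 against wild type the number of called XTH members was 0 of 30, was 1 with the replicate block on the 8 paired arrays (an alternative chosen after seeing the data) and 0 with the replicate block on all 12 arrays, and ran from 0 to 8 with 1 array left out. Over all loci the calls there numbered 681, then 1420 and 1314 with these blocks, and 252 to 3222 with 1 array left out. In 35S:GLK1-SRDX against wild type the number of called members was 5 (2948 over all loci). It was 0 with normexp background correction (830 over all loci), 3 with no filter on dim probes (2303 of 25604) and 1 with the authors' value table (899). It was 6 with the replicate block (4488), 7 with only the 2 groups compared (4418), and 0 to 7 with 1 array left out (1502 to 4420). Between 35S:GLK1-SRDX and glk1 glk2 the number of called members was 1 (1913 over all loci). It was 0 with normexp (288), 3 with the value table (1552), and 1 to 3 with 1 array left out (996 to 2676). The causes were not tested. With the replicate block on 12 arrays XTH24 also passed in 35S:GLK1-SRDX against wild type, and no other call of a member changed. Same-numbered 35S:GLK1-SRDX and wild-type arrays correlated at just -0.20 to 0.26, so a pairing of these arrays by number was not shown. The root-type median kept its sign against wild type in all alternatives run, from -1.18 to -0.62 in glk1 glk2 and from -1.31 to -0.95 in 35S:GLK1-SRDX. Of the called members, XTH17 passed in 18 of 22 alternatives, XTH22 in 15 of 22 (21 of 22 against glk1 glk2), XTH18 in 12 of 22, XTH9 in 11 of 22 and XTH26 in 7 of 21, with no change of sign. Called loci in glk1 glk2 numbered 453 higher and 228 lower, against 1779 and 165 with median scaling and 4 and 132 with the value table. Signal over background limits XTH10, XTH11, XTH26 and XTH29, which were dim on some arrays.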

Other observations

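Several XTH genes stand side by side on the chromosomes, and their log2 fold changes in 35S:GLK1-SRDX against wild type are given in chromosome order. On chromosome 4, XTH24 of the shoot type is followed by XTH18 and XTH19 of the root type with no gene between them, and their log2 fold changes were 0.66, -1.23 and -0.80. On the same chromosome XTH23 adjoins XTH14, with -0.62 and -1.65. On chromosome 5, XTH13, XTH25 and XTH22 are adjacent, with -0.11, -0.44 and -0.65, and XTH12 lies 1 gene away from XTH13, with -0.49. The signs were opposite for XTH24 and XTH18 and the same for the other neighbours. Of these genes, XTH18 and XTH22 passed the threshold, and likeness between neighbours was not tested.

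The 4 arrays of 35S:GLK1-SRDX were closer to each other than those of the other genotypes over the whole family. The median SD over 30 members was 0.68 in glk1 glk2, 0.24 in 35S:GLK1-SRDX and 0.43 in wild type. The 4 arrays of 35S:GLK1-SRDX shared 1 slide, whereas those of each other genotype lay on 2, and slide and genotype cannot be told apart here. Within the line, replicate 1 was the highest array for 6 of 7 shoot-type members, and replicate 3 was the highest for 6 of 10 root-type members.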
